A study of Mus musculus with 7 samples.

Results

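The genes described here are 40 mouse genes of mitosis and cytokinesis, followed across cultured cardiac mesenchymal progenitors and whole hearts. The rule that picks them uses gene names alone. Every probe that carried a listed gene name was taken, which gave 59 of 55670 probes and 40 of 34792 gene names. By role they comprised the cyclins and their kinase switch (Ccna2, Ccnb1, Ccnb2, Cdk1, Cdc25c), the mitotic kinases and passenger proteins (Plk1, Aurka, Aurkb, Birc5, Cdca8), and the spindle checkpoint (Bub1, Bub1b, Mad2l1, Ttk). The side of protein destruction was represented by Cdc20, Ube2c and Cdca3, and the kinetochore by Cenpa, Cenpe, Cenpf, Ndc80, Nuf2 and Spc25. The spindle set held Kif2c, Kif4, Kif11, Kif22, Tpx2, Nusap1 and Hmmr, and the central spindle and cytokinesis set held Kif20a, Kif23, Prc1, Anln, Ect2 and Racgap1. Mki67 and Top2a stood for chromosome structure, and Foxm1 and Melk for regulators of the programme.

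A cell enters mitosis when cyclin B and Cdk1 become active, builds a spindle that holds each chromosome by its kinetochores, and waits at the spindle checkpoint until all chromosomes are attached. The anaphase-promoting complex with Cdc20 then marks cyclin B for destruction, the chromosomes part, and the central spindle places the ring that divides the cell. Many of these genes are transcribed late in the cell cycle and kept silent in resting cells, and heart muscle cells of the adult mouse are known to divide very rarely whereas those of the fetus still do.

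Total RNA was measured on 7 one-colour Agilent mouse arrays, 1 array a source. Cardiac mesenchymal progenitors (CMPs), stromal cells grown out of adult C57BL/6 heart tissue, came from postmortem tissue stored 24 h at 4 °C (1 ventricular and 1 atrial culture) and from living tissue (1 ventricular and 1 atrial culture). All 4 cultures were grown on collagen I in DMEM/F12 with 10% serum and 40 ng/ml bFGF, a growth factor, so every CMP value is that of cells in a growth medium. The hearts were 1 adult heart RNA bought commercially, strain not given, and 2 fetal C57BL/6 hearts of embryonic day 16.5, 1 carrying C57BL/6-Tg(Myh6-EGFP)MG2, in which the heart muscle promoter of Myh6 drives EGFP, and 1 wild type. Nothing in the labels says that arrays of a group came from separate cultures or animals, and no 2 arrays shared tissue state, chamber and genotype. A p-value here weighs a difference against the spread that the fit leaves over. That spread joins the gap between the 2 fetal hearts and the departure of the 4 CMP arrays from additive effects of tissue state and chamber. It is not a spread of replicates, and part of it may be technical. The test used, limma, draws each gene's spread toward that of genes with a like level. A p-value therefore does not rest on the gene's own arrays alone.

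Levels are given as log2 signal minus the 75th percentile of the same array, so 0 is that percentile, and levels of different genes are not set against each other because each has its own probe. The share of probes well above background was 46.5% to 52.5% by array, and no spot was saturated. The 4 CMP arrays lay in 1 row of the slide and the 3 heart arrays in the other, so slide position and the contrast of CMPs with hearts cannot be told apart. The label of the CMPs was checked against 10 mesenchymal markers, which were above background on every CMP array and also on every heart array. Against the adult heart 9 of them rose in CMPs and 1, Nt5e, fell (limma), where 24.6% of all genes rose and 24.6% fell. Against fetal heart 9 rose, where 22.8% of all genes did. The summed linear level of these markers, relative to the 75th percentile, was 1300 to 1520 in CMPs, 193 in the adult heart and 398 to 418 in fetal hearts. Between postmortem and living CMPs, 9.09% of genes were 2-fold higher and 10.6% 2-fold lower in the atrial pair, against 4.9% and 4.98% in the ventricular pair. The postmortem atrial array stood off from the other CMPs in this way, and results are also given without it.

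The promoters of these genes were read first, because nearly all members tested had the same direction in each comparison described further on. In the RefSeq table for GRCm38.p6, which gives 250 bases before to 50 bases after each start, 34 of the 40 genes had an entry; Ccna2, Aurkb, Kif20a, Tpx2, Foxm1 and Cdc25c had none. The letters CCAAT, which the factor NF-Y is known to bind, were searched on both strands, as were the letters TTTGAA and the palindrome TTCGAA, which write the cell cycle genes homology region (CHR) known to be bound by the MuvB complex. CCAAT was present for 26 of 34 members (76.5%), against 41.1% of the 27025 genes in the table. The CHR letters were present for 27 members (79.4%), against 21.7% of all genes. Both motifs were present for 24 members (70.6%), against 9.7% of all genes. Of 73 other mitosis genes with an entry, 41.1% had both, and of 6 G1 cyclin and kinase genes 3 had CCAAT and 0 had the CHR letters. These shares are a description of letters in a window and not of binding.

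The stretches of 4 genes with both motifs and 1 with neither are shown, each the 160 bases before the RefSeq start, written 5′ to 3′ on the strand of the gene. Capitals mark CCAAT, which reads ATTGG where it lies on the opposite strand, and the CHR letters TTTGAA, which read TTCAAA where they lie on the opposite strand. Cdc20 (chr4:118437344-118437503, minus strand) activates the anaphase-promoting complex, and Cdk1 (chr10:69352913-69353072, minus strand) is the kinase of mitotic entry. Kif11 (chr19:37376222-37376381, plus strand) is the motor that pushes spindle poles apart, and Ube2c (chr2:164769769-164769928, plus strand) is the ubiquitin-conjugating enzyme of the anaphase-promoting complex. Mad2l1 (chr6:66535061-66535220, plus strand), a checkpoint protein that holds back Cdc20, is shown as a window without either motif and as the gene with the smallest difference between postmortem and living CMPs. The 5 were chosen after their values were seen.
Cdc20: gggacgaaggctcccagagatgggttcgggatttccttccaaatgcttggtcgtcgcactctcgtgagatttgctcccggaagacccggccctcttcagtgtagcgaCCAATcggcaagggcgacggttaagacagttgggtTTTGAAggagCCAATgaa
Cdk1: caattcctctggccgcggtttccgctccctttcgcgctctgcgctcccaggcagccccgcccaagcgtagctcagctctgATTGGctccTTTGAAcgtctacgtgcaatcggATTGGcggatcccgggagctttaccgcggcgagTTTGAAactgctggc
Kif11: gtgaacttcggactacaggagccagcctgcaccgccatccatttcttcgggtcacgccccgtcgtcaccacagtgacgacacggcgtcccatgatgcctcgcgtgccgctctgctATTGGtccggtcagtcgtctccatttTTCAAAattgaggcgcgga
Ube2c: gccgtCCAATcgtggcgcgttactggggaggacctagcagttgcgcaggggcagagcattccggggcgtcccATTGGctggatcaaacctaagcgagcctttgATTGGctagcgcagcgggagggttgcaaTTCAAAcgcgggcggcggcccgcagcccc
Mad2l1: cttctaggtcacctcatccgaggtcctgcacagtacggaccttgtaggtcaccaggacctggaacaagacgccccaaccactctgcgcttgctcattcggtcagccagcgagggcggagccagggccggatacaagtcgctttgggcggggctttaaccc

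Prc1 and Ect2 have 2 overlapping windows each. With 1 window a gene, and a palindrome counted once, 61 of 63 CCAAT matches lay before the start, and 18 of 37 CHR matches did. The windows of Birc5, Mad2l1, Nuf2, Nusap1 and Melk held neither motif. Ccnb1 and Cenpe had CCAAT without the CHR letters, and Ndc80, Kif2c and Anln had the reverse. Members with both motifs and members with neither had close values in the array comparisons. Their median log2 difference was 0.84 (23 genes with both) and 0.78 (5 with neither) for postmortem minus living CMPs, and 3.91 and 3.72 for CMPs minus adult heart. For CMPs minus fetal heart the medians were -1.75 (24 genes) and -1.65 (5 genes).

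**Figure D1:**
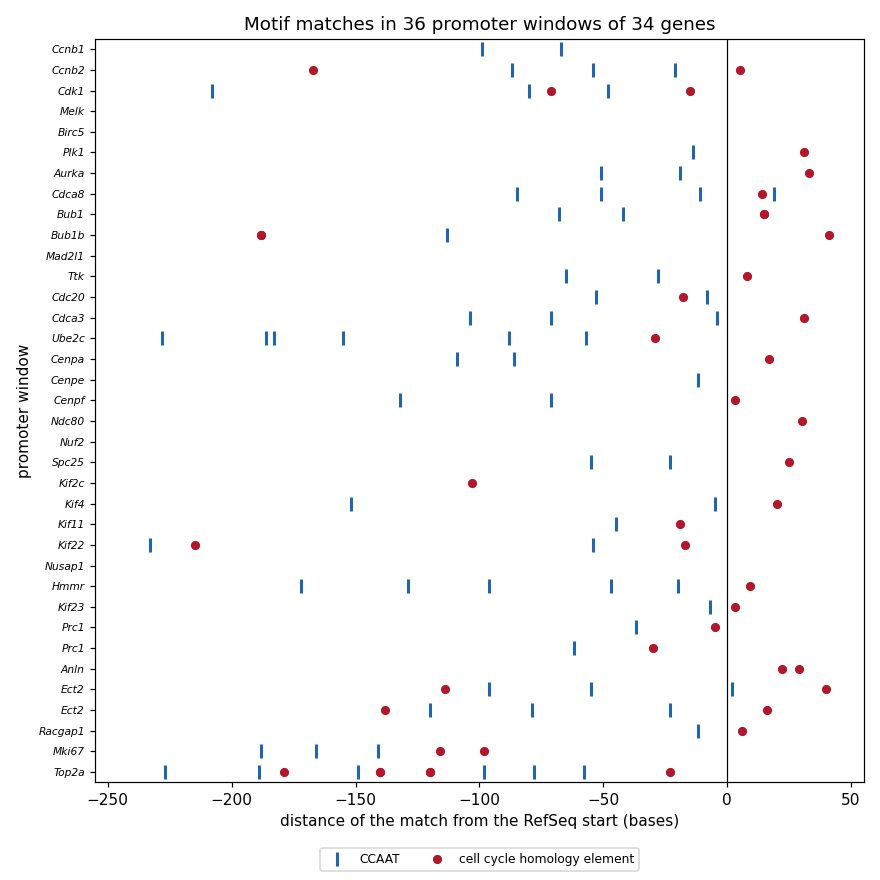
Motif matches by distance in bases from the RefSeq start (vertical line) for the 36 promoter windows of 34 genes, with CCAAT as blue bars and the CHR letters as red dots. Nearly all blue bars lie left of the start (61 of 63 with 1 window a gene), the red dots lie on both sides (18 of 37 left), and 5 windows (Birc5, Mad2l1, Nuf2, Nusap1, Melk) are empty.

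Across the 7 arrays the genes kept nearly the same order of sources. In 37 of 40 genes the fetal hearts were highest, the CMPs in between and the adult heart lowest, on group means. The other 3 genes, Aurkb, Cenpa and Cenpf, had fetal heart highest and CMPs lowest. All 40 genes had their highest array among the fetal hearts, 10 in the Myh6-EGFP heart and 30 in the wild-type heart. Within the CMPs, 24 genes followed the order postmortem ventricular, postmortem atrial, living ventricular, living atrial, and 12 more followed it with the postmortem arrays exchanged. The number of members well above background was 39 in postmortem ventricular, 38 in postmortem atrial, 37 in living ventricular and 37 in living atrial CMPs. It was 24 in the adult heart, 39 in the Myh6-EGFP fetal heart and 40 in the wild-type fetal heart. The median level over the 40 genes was 2.17, 2.15, 1.60 and 1.22 in those 4 CMP arrays, -2.34 in the adult heart, and 3.41 and 3.52 in those 2 fetal hearts. Aurkb, the catalytic subunit of the passenger complex, was above background on the wild-type fetal array alone and entered no comparison.

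**Figure D2:**
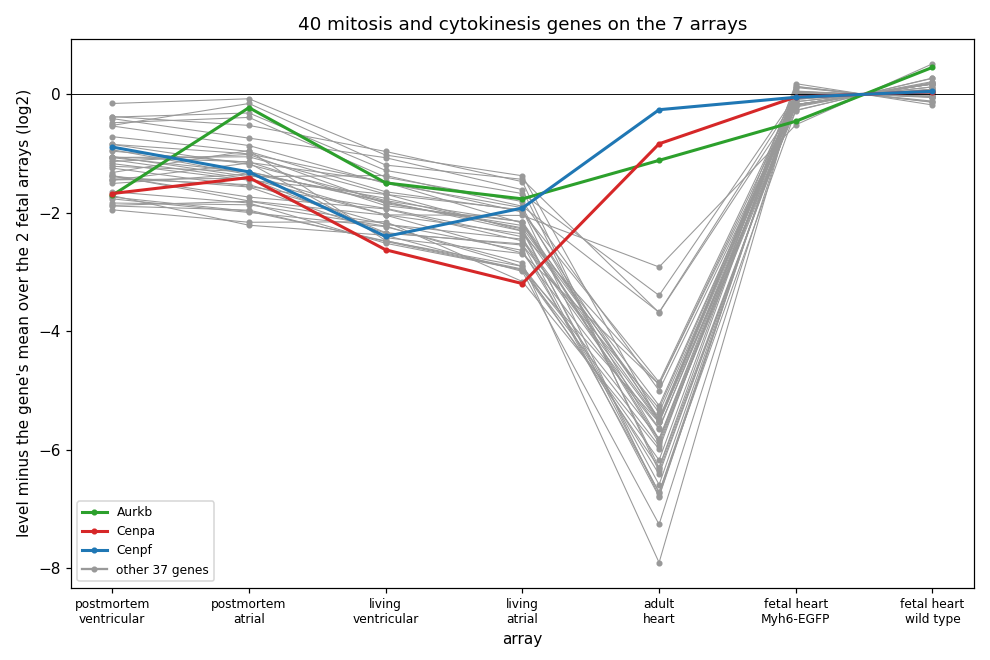
Level of each of the 40 genes on each array (log2), minus the gene's own mean over the 2 fetal arrays. In 37 of the 39 genes tested the 4 CMP arrays lie below both fetal hearts, 37 of 40 genes reach their minimum in the adult heart, and Cenpa, Cenpf and Aurkb (coloured) do not.

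Postmortem against living CMPs asked whether cells grown from stored tissue carry the same expression as cells grown from fresh tissue. All 38 members tested stood higher in postmortem than in living CMPs, by 0.41 to 1.58 on the log2 scale with a median of 0.88, where the median of all 19013 genes tested was 0.01. None passed the limma test at an adjusted p of 0.05 (0 of 38, 33 at an unadjusted p under 0.05), with adjusted p-values between 0.186 and 0.57. Among all genes tested, 0.00526% were called higher, and 2101 of 19013 had an unadjusted p under 0.05. Aurkb and Cenpf were too dim to be tested. Ttk entered the test through the postmortem side alone, which largely set its direction. The 37 members above background on every array of both sides all stood higher in postmortem CMPs. In 36 of the 38 members both postmortem arrays lay above both living arrays, a pattern that 23.9% of all genes tested showed. Mad2l1 and Ube2c were the members whose arrays overlapped. In RNA from whole cultures, more dividing cells and more RNA of these genes per cell cannot be told apart.

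Among the cyclins, Ccnb1, the cyclin that activates Cdk1 at mitotic entry, had levels of 3.24 and 3.01 in postmortem ventricular and atrial CMPs, against 2.77 and 2.16 in living ventricular and atrial CMPs. Both postmortem arrays were above both living arrays, by 0.66 ± 0.18 (SE; limma, adjusted p = 0.324). Cdk1 itself had 2.08 and 1.80 in postmortem CMPs, against 1.56 and 1.30 in living CMPs in the same order of chambers. The arrays did not overlap, and the difference of 0.51 ± 0.19 (limma, adjusted p = 0.413) was among the 3 smallest. Cdc25c, the phosphatase that removes the inhibitory phosphates of Cdk1, had the largest difference of the list. Its levels were -1.34 and -0.97 in postmortem CMPs and -2.49 and -2.97 in living CMPs, a difference of 1.58 ± 0.38, or 2.99-fold (limma, adjusted p = 0.287). Ccna2 and Ccnb2 differed by 0.80 and 0.93, with no overlap of arrays.

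The kinase and passenger genes differed within a narrow range, from 0.77 (Aurka, the kinase of the spindle poles) to 1.00 (Birc5, the passenger protein survivin). Birc5 had 4.84 and 4.65 in postmortem ventricular and atrial CMPs, against 3.97 and 3.52 in living CMPs of those chambers. The gap between the groups was larger than the spread inside either, and the difference was 1.00 ± 0.16 (limma, adjusted p = 0.191). Plk1, a kinase needed from mitotic entry to cytokinesis, and Cdca8, the passenger subunit borealin, differed by 0.87 and 0.83.

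The checkpoint and destruction genes included the smallest differences. Mad2l1 had 2.55 and 2.21 in postmortem ventricular and atrial CMPs, against 2.23 and 1.71 in living CMPs, and its postmortem atrial array lay below its living ventricular array (difference 0.41 ± 0.17, limma, adjusted p = 0.475). Bub1b, the checkpoint protein BubR1, differed by 0.58 ± 0.26 and was the third smallest (limma, adjusted p = 0.496). Ube2c had 3.17 and 2.96 in postmortem CMPs, against 2.97 and 1.96 in living CMPs, so that the living ventricular culture lay level with the postmortem atrial culture. Cdc20 had 4.51 and 4.26 in postmortem CMPs, against 3.58 and 3.26 in living CMPs. Its arrays were well apart (0.96 ± 0.15), and its adjusted p of 0.186 in limma was the lowest of the list. Ttk, the checkpoint kinase Mps1, was above background in both postmortem cultures and in neither living culture, and was at least 1.40-fold higher (limma, adjusted p = 0.57). Here and wherever a fold is given as at least, the dim side was set per array to the higher of its own signal and the lowest signal of any probe well above background.

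Of the kinetochore genes, Cenpa, the histone H3 variant that marks the centromere, differed most. Its levels were 2.11 and 2.38 in postmortem ventricular and atrial CMPs, against 1.16 and 0.59 in living CMPs. The arrays did not overlap, and the fitted difference was 1.37 ± 0.24, or 2.58-fold (limma, adjusted p = 0.205). Nuf2 and Ndc80, which form the arm that grips microtubules, differed by 1.17 and 0.96, Spc25 of the same complex by 0.92, and the kinetochore motor Cenpe by 0.97. Cenpf, a protein of the outer kinetochore, was above background in the postmortem ventricular culture alone among CMPs.

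The spindle genes ranged from 0.71 (Kif11) to 1.13 (Hmmr, a spindle assembly protein that also binds hyaluronan), and those of the central spindle from 0.67 (Racgap1) to 1.25 (Kif23). Kif23 and Racgap1 are the motor and the regulator that together bundle microtubules between the parting chromosomes. Kif23 had -0.19 and 0.10 in postmortem ventricular and atrial CMPs, against -1.16 and -1.43 in living CMPs, without overlap (1.25 ± 0.27, 2.38-fold, limma, adjusted p = 0.257). Anln, the ring scaffold anillin, had 3.86 and 3.94 in postmortem CMPs, against 2.99 and 2.64 in living CMPs. Its difference of 1.08 ± 0.20 was also free of overlap (limma, adjusted p = 0.215). Mki67, the Ki-67 protein that coats mitotic chromosomes, had 4.08 and 3.76 in postmortem CMPs, against 3.15 and 2.83 in living CMPs, a gap of 0.93 ± 0.19. Top2a, which untangles DNA before segregation, differed by 0.97. The regulators Foxm1, a factor that activates late cell cycle genes, and Melk, a kinase, differed by 0.98 and 0.65.

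The gap was present in both chambers. In the ventricular pair 39 of 39 members measured were higher in the postmortem culture, with a median of 0.72 and 3 of them at 2-fold or more, where 4.9% of all genes reached 2-fold in that direction. The 3 were Cenpf (1.51), Cdc25c (1.16) and Ttk (1.1). Cenpf and Ttk entered this pair through the postmortem array alone, which largely set their direction. In the atrial pair 38 of 38 were higher, with a median of 0.99 and 17 at 2-fold or more, where 9.09% of all genes reached it. Ttk entered the atrial pair, too, through the postmortem array alone. These pairs are 1 array against 1 and carry no test of their own. The ventricular gap minus the atrial gap was below 0 for 35 of 38 members, with a median of -0.29, against -0.06 for all genes tested. No member passed the limma interaction test (0 of 38, 0 at an unadjusted p under 0.05, adjusted p 1 for each). Over all genes tested that fit called 458 of 19013. It has 1 residual degree of freedom, and its spread is that between the 2 fetal hearts, which limma pools over genes of like level. The standard errors of the members were 0.53 to 1.11, so the fit bears little on gaps of this size. Without the postmortem atrial array the fitted difference is that of the ventricular pair, with the same median of 0.72, and so is no separate check. Of the cell type markers, endothelial ones summed to 12.2 and 9.85 in postmortem ventricular and atrial CMPs, against 13.2 and 19.1 in living CMPs, and 0 of 8 stood higher in postmortem CMPs, with 0 called by limma (0 at an unadjusted p under 0.05). Cardiomyocyte markers summed to 6.90 and 16.6 in postmortem CMPs, against 1.42 and 17.4 in living CMPs, with 1 to 4 of 10 above background. Leukocyte markers summed to 48 and 63 in postmortem ventricular and atrial CMPs, against 71.3 and 69.5 in living CMPs, and 1 of 5 tested stood higher in postmortem CMPs. Smooth muscle markers summed to 364 and 189 in postmortem CMPs, against 327 and 230 in living CMPs, and 2 of 5 tested stood higher, Rgs5 most (2.31 ± 0.39, limma, adjusted p = 0.196). Mesenchymal markers summed to 1300 and 1520 in postmortem CMPs, against 1480 and 1370 in living CMPs. Of these 4 of 10 stood higher, and Nt5e stood lowest (-2.55 ± 0.26, limma, adjusted p = 0.0674). Erythroid markers were near background throughout, with 1 to 2 of 9 above it. Their part in the difference of the mitosis genes was not tested.

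Leaving out a ventricular array changed the calls. Without the postmortem ventricular array 6 members rose in limma, and without the living ventricular array 5 did. Anln, Ccnb2, Cdc25c, Cenpa and Hmmr were called both times, with Cenpa at 1.79 (adjusted p = 0.000121 and 0.000111), and Birc5 was called without the postmortem ventricular array alone. In these fits the difference is that of the atrial pair and the spread comes from the 2 fetal arrays alone. It is pooled by limma over genes of like level, so it is not that of the gene's own fetal pair. Calls grew over the whole array as well, to 8.88% and 8.31% of all genes tested, against 20 of 19013 with every array.

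**Figure D3:**
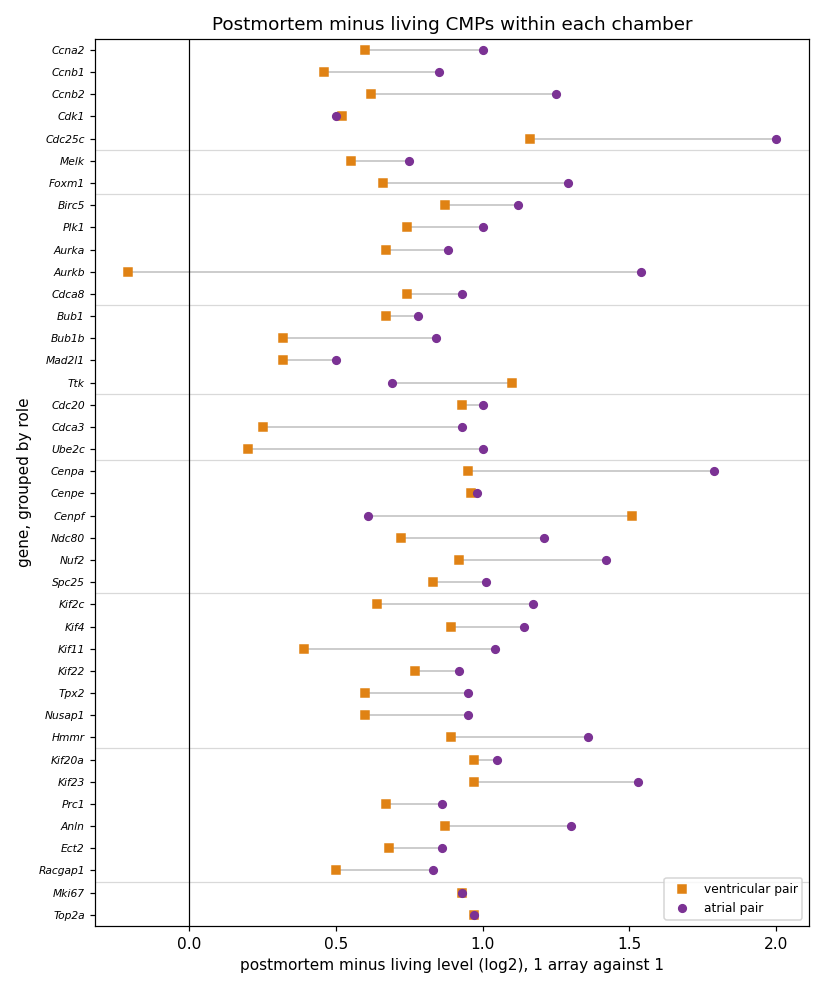
Postmortem minus living level (log2) of each gene, 1 array against 1, for the ventricular pair (squares) and the atrial pair (circles), with genes grouped by role. Apart from Aurkb, which was not above background in CMPs, every point lies right of 0, and most atrial points (median 0.99) lie right of the ventricular ones (median 0.72). Cenpf and Ttk were not above background in either living culture.

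Ventricular against atrial CMPs compared the chambers of origin over both tissue states. The members differed little: 35 of the 37 tested stood higher in ventricular CMPs, by a median of 0.31, against 0.03 for all genes tested. No member passed the limma test (0 of 37, 1 at an unadjusted p under 0.05), and 0% of all genes were called higher. Over all genes tested 1562 of 18912 had an unadjusted p under 0.05. Aurka had the lowest p, with 3.14 and 2.47 in postmortem and living ventricular CMPs, against 2.71 and 1.83 in postmortem and living atrial CMPs. Its ventricular array was the higher within each state, yet the living ventricular value lay below the postmortem atrial value (0.54 ± 0.17, limma, adjusted p = 0.5). The largest difference was that of Ube2c (0.61 ± 0.26), followed by Bub1 (0.55) and Aurka. Mad2l1 and Ube2c were the 2 members whose ventricular arrays both lay above both atrial arrays, against 21.6% of all genes. Foxm1 (-0.07) and Kif23 (-0.01) were the members not above 0.

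In living CMPs 37 of 37 members measured were higher in the ventricular culture, with a median of 0.45. In postmortem CMPs 27 of 39 were higher and 12 lower, with a median of 0.18. Without the postmortem atrial array the fitted difference is that of the living pair, with the same median of 0.45. Without the living atrial or the living ventricular array the fitted difference is that of the postmortem pair. Its median was 0.17 and 0.18 over the members tested, and 10 of the 37 members turned sign each time.

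CMPs against fetal heart set the cultures beside a growing heart. All 39 members tested fell in CMPs relative to fetal heart (limma, adjusted p between 0.00029 and 0.0334), by 0.66 to 2.35 on the log2 scale. Their median difference was -1.65, against -0.01 for all 20052 genes tested, of which 25.2% were called lower and 22.8% higher. In 37 of the 39 every CMP array lay below both fetal arrays, which 31.6% of all genes tested did. Anln and Foxm1 were the members whose arrays overlapped. Cenpf and Ttk entered the test through the fetal side alone, which largely set their direction. The 37 members above background on every array of both sides all fell. Cenpf lost its call with normexp background correction (limma, adjusted p = 0.0988), and Ttk without the filter on dim probes (limma, adjusted p = 0.0568). Aurkb was not tested.

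Ube2c fell most, to 3.17, 2.96, 2.97 and 1.96 in postmortem ventricular, postmortem atrial, living ventricular and living atrial CMPs, against 5.30 and 4.94 in the Myh6-EGFP and wild-type fetal hearts (-2.35 ± 0.22, 5.11-fold lower, limma, adjusted p = 0.000891). The highest CMP array was well below the lower fetal array. Ccna2, the cyclin of S phase and early mitosis, and Bub1, the checkpoint kinase, fell by 2.32 each. Cdca8 and Birc5 fell by 2.27 and 2.24. Birc5 reached 3.52 to 4.84 in CMPs, against 6.46 and 6.51 in fetal hearts (limma, adjusted p = 0.000296). The passenger and kinase genes had the lowest median of the roles, at -2.11 over 4 genes, and those of the central spindle and cytokinesis had -1.30 over 6 genes.

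The smallest differences were those of Anln, Foxm1 and Tpx2, the last a spindle protein that activates Aurka. Anln had 3.86 and 3.94 in postmortem ventricular and atrial CMPs and 2.99 and 2.64 in living CMPs, against 4.15 and 3.88 in fetal hearts. The postmortem atrial array was thus above the wild-type fetal heart, and the call (-0.66 ± 0.17, limma, adjusted p = 0.0265) was lost when the postmortem ventricular, the living atrial or the Myh6-EGFP fetal array was left out (adjusted p 0.0834, 0.0812 and 0.119). Foxm1 had 0.90, 1.27, 0.23 and -0.01 in the 4 CMP arrays in the same order, against 1.25 and 1.60 in fetal hearts. Its call (-0.83 ± 0.24, limma, adjusted p = 0.0334) was lost without those same arrays and without the wild-type fetal heart. Tpx2 fell by 0.84 ± 0.20 (limma, adjusted p = 0.018). Without the wild-type fetal array 32 of the 39 calls remained, and without the Myh6-EGFP array 36. Without the postmortem atrial array all 39 remained.

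CMPs against adult heart gave the larger differences. Of 38 members tested, 36 rose in CMPs and 1 fell (limma), with a median difference of 3.88, against 0 for all 20278 genes tested, of which 24.6% were called higher and 24.6% lower. The same 36 genes had every CMP array above the adult array, which 40.7% of all genes tested did. The adult heart was 1 array, so its own spread was taken to be like that of the other groups. For 14 of the 38 the adult heart was not well above background, and with these genes at their bounds the median was 3.66. These 14 entered the test through the CMP side alone, which largely set their direction. Of the 23 members above background on every array of both sides, 22 stood higher in CMPs and 1 lower. Ttk was dim in the adult heart and in the living CMPs, and with Aurkb it was not tested. Without the postmortem atrial array all 37 calls remained.

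Ccnb1 rose most, to 3.24, 3.01, 2.77 and 2.16 in postmortem ventricular, postmortem atrial, living ventricular and living atrial CMPs, against -2.90 in the adult heart (5.70 ± 0.20, 52-fold, limma, adjusted p = 2e-04). The CMP arrays spanned 1.07 log2 units, far less than the gap to the adult heart. Tpx2 was at least 36.3-fold higher (limma, adjusted p = 0.000262) and Cdk1 at least 34.2-fold higher (limma, adjusted p = 2e-04), both above background in every CMP and dim in the adult heart. These are the values of the brightest probe: another probe of Tpx2 gave a log2 difference of 1.04, and the other 2 of Cdk1 gave 0.36 and 2.52. Prc1, which crosslinks the antiparallel microtubules of the central spindle, rose by 5.34 ± 0.20, or 40.4-fold. Its levels were 4.33, 4.00, 3.67 and 3.13 in the CMP arrays in that order, against -1.56 in the adult heart. Other clear rises with both sides measured were Cdca3, an adaptor in the destruction of the Cdk1 inhibitor Wee1 (32-fold), Plk1 (31.3-fold), Anln (29.1-fold) and Kif20a, a motor of cytokinesis (24.6-fold).

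The smallest rises were those of Mad2l1, Hmmr and Foxm1. Mad2l1 had 2.55, 2.21, 2.23 and 1.71 in CMPs, against -0.08 in the adult heart, a 4.77-fold rise (2.25 ± 0.20, limma, adjusted p = 0.000843). Hmmr rose by 2.48 ± 0.23 and Foxm1 by 2.86 ± 0.30. Mki67 lay close to these, at 4.08, 3.76, 3.15 and 2.83 in CMPs, against 0.29 in the adult heart. That was a 9-fold rise (3.17 ± 0.21, limma, adjusted p = 0.000474).

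Cenpa and Cenpf, both of the kinetochore, stood lower in CMPs than in the adult heart, unlike the other members tested. Cenpa had 2.11, 2.38, 1.16 and 0.59 in postmortem ventricular, postmortem atrial, living ventricular and living atrial CMPs, 2.95 in the adult heart, and 3.74 and 3.83 in the Myh6-EGFP and wild-type fetal hearts. Its adult level lay above all 4 CMP arrays, and Cenpa fell in CMPs relative to the adult heart (-1.39 ± 0.27, 2.62-fold lower, limma, adjusted p = 0.00969). Cenpf had -3.48, -3.90, -4.99 and -4.51 in CMPs in the same order, with the last 3 not above background, against -2.85 in the adult heart. Cenpf thus entered the test through the adult array alone, which largely set its direction. Its difference of -1.37 ± 0.47 did not pass the limma test (adjusted p = 0.0575). Each of these 2 genes had a single probe, at chr5:30974916-30975386 on the plus strand for Cenpa and at chr1:191464978-191465037 on the minus strand for Cenpf, in mm9 coordinates. The other 4 kinetochore members, Cenpe, Ndc80, Nuf2 and Spc25, rose in CMPs.

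**Figure D4:**
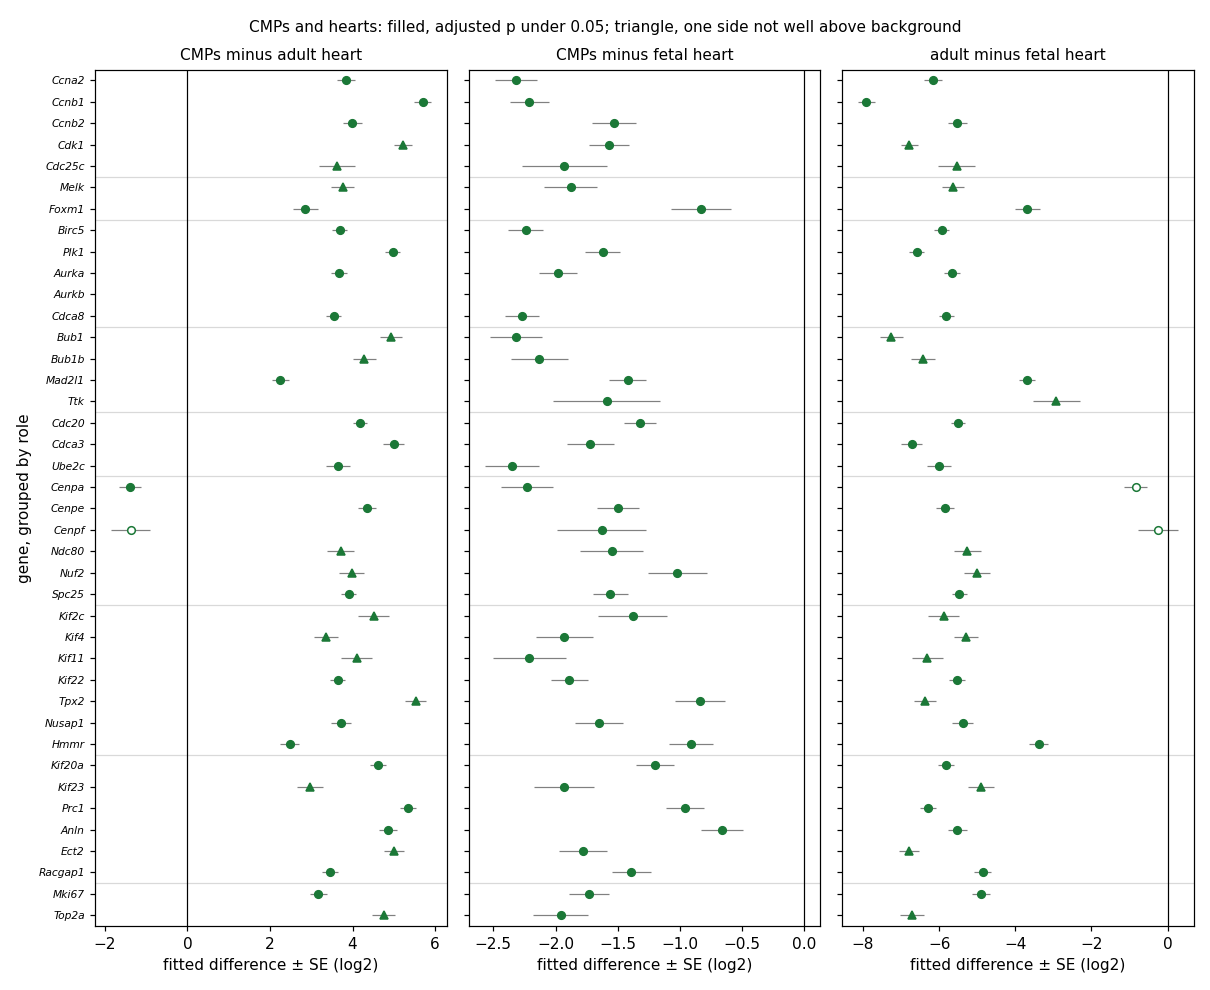
Fitted log2 differences with standard errors for each member, from left to right CMPs minus adult heart, CMPs minus fetal heart and adult minus fetal heart. Filled symbols passed the limma test, and triangles mark genes with 1 side not well above background; in the left panel 36 genes lie right of 0, with Cenpa and Cenpf left of it.

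Cell makeup moved with the contrasts of CMPs with hearts. Cardiomyocyte markers summed to 1.42 to 17.4 in CMPs, where 1 to 4 of 10 were above background, against 6610 in the adult heart and 2720 to 4780 in fetal hearts. Erythroid markers summed to 0.234 to 0.273 in CMPs, with 1 to 2 of 9 above background, against 1640 in the adult and 2230 to 3430 in fetal hearts. Endothelial markers summed to 9.85 to 19.1 in CMPs, 61 in the adult and 38.1 to 53.3 in fetal hearts, with 7 to 8 of 8 above background throughout. Leukocyte markers summed to 48 to 71.3 in CMPs (5 to 6 of 7 above background), 106 in the adult and 28.3 to 34.1 in fetal hearts. Smooth muscle markers summed to 189 to 364 in CMPs, 301 in the adult and 400 to 631 in fetal hearts. Their part in the differences of the mitosis genes was not tested.

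Adult heart against fetal heart compared the stages of the organ. Of 39 members tested 37 fell in the adult heart (limma), with a median difference of -5.64, or -5.52 with the 15 members that were dim in the adult heart at their bounds, against 0.09 for all 20946 genes tested. Among all genes 18.2% were called lower, and 41.9% had the adult array below both fetal arrays, as all 39 members tested did. The 15 dim members entered the test through the fetal side alone, which largely set their direction. The 24 members above background on every array of both sides all stood lower in the adult heart. Ccnb1 fell most, with -2.90 in the adult heart, against 5.04 and 4.97 in the Myh6-EGFP and wild-type fetal hearts (-7.91 ± 0.22, 240-fold lower, limma, adjusted p = 0.000394). By their brightest probes Cdk1 was at least 101-fold lower and Top2a at least 94.8-fold lower in the adult heart, while the other 2 probes of Cdk1 gave log2 differences of -1.71 and -3.90. Cdca3 and Plk1, measured on both sides, were 106-fold and 96.4-fold lower.

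Among the called members with both sides measured, the smallest fall was that of Hmmr (10.5-fold), followed by Mad2l1 (12.8-fold) and Foxm1 (12.9-fold). Cenpa (-0.84 ± 0.30, limma, adjusted p = 0.0757) and Cenpf (-0.26 ± 0.52, limma, adjusted p = 0.713) did not pass. Cenpa passed with the same difference when any 1 of the CMP arrays was left out (adjusted p 0.0294 to 0.0314), fits in which the spread again came from the fetal pair. The comparisons of CMPs with each heart and of the hearts with each other share arrays, so their values for a gene are not independent of one another.

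Between the 2 fetal hearts the gaps were small. The Myh6-EGFP heart was lower than the wild-type heart in 30 of 40 members, by a median of -0.11, where the median of all genes was 0.12. The widest gap was that of Ttk, with -2.90 in the Myh6-EGFP heart and -1.87 in the wild-type heart, and Ube2c had the largest gap in the other direction (5.30 and 4.94). With 1 array each this pair has no test.

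**Figure D5:**
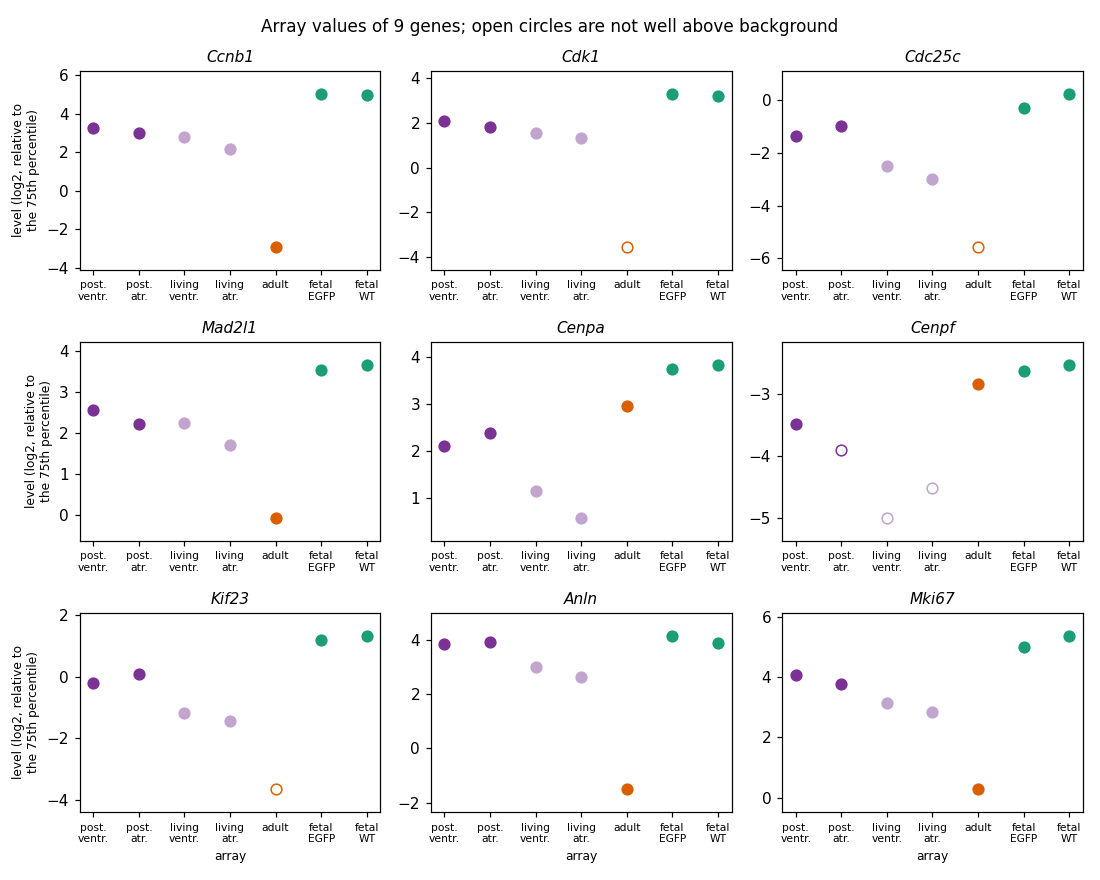
Level on each array (log2, relative to the 75th percentile of the array) of 9 genes, with postmortem CMPs in dark purple, living CMPs in light purple, adult heart in orange and fetal hearts in green; open circles are not well above background. In each panel but Cenpa and Cenpf the adult heart is the lowest array, and in each the postmortem CMPs lie at or above the living ones except the postmortem atrial array of Mad2l1 against its living ventricular array.

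Some members had probes that disagreed. Of the members 26 had 1 probe and 14 had more. The second probe of Kif23 was above background in the living ventricular culture alone (-2.32 there, and -6.48 to -5.30 elsewhere) and gave -1.98 for postmortem minus living CMPs, opposite to the main probe. The 2 other probes of Nuf2 were at background on every array and gave -0.30 and -0.33. The second probe of Ect2, the exchange factor that starts cytokinesis, was above background in fetal hearts alone. It gave -0.61 for CMPs minus adult heart, opposite to the main probe, with both sides at background. With the mean of all probes in place of the brightest, Kif23 and Nuf2 lost their calls against fetal heart (limma, adjusted p 0.553 and 0.53) and against adult heart (0.109 and 0.144). Kif23 (-2) and Nuf2 (-1.09) also lost their calls for adult minus fetal heart with that mean. Cdk1 and Tpx2 had probes of 1 sign and of unequal size. With the mean of its 3 probes Cdk1 had 2.70 for CMPs minus adult heart (limma, adjusted p = 0.00234) and -4.13 for adult minus fetal heart (limma, adjusted p = 0.00182). The mean of probes took the call of Foxm1 against fetal heart (0.0862).

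Other genes of mitosis, taken from a list of 88 names of which 80 were on the array, mostly had the directions of the 40 members. In postmortem against living CMPs 77 of 79 tested stood higher, with a median of 0.64, where 50.7% of all genes tested stood higher. Of the 79, 0 were called by limma and 39 had an unadjusted p under 0.05, against 2101 of all 19013 genes tested. The largest difference with both sides measured was that of Dlgap5, a spindle protein (1.43 ± 0.29, adjusted p = 0.245), and the lowest were Zwint (-0.13) and Mis12 (-0.08), both of the kinetochore. Against fetal heart 66 of 80 fell in CMPs and 0 rose, with a median of -1.40, where 25.2% of all genes fell and 22.8% rose. Haus8, an augmin subunit, fell most (-3.00 ± 0.27). Ckap2 (0.52), Mis12 (0.44) and Gtse1 (0.38) stood highest in CMPs there and did not pass. Against adult heart 62 of 75 rose in CMPs and 0 fell, with a median of 2.65, where 24.6% of all genes rose and 24.6% fell. Fam64a, a gene of mitotic progression, was at least 31.8-fold and Gtse1 at least 20.8-fold higher in CMPs. In adult against fetal heart 72 of 80 fell, with a median of -4.13, where 18.2% of all genes fell.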

How the data were processed

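RNA of 4 CMP cultures and 3 hearts was labelled with Cy3 and hybridised to Agilent mouse arrays, 250 ng each, per the labels' protocols. The deposited scanner files hold intensity per spot as background-corrected processed signal, made by the authors with Agilent Feature Extraction, named as 10.7.3.1 in the file headers and 9.5.3 in the submitters' processing notes. The deposited series table holds log2 values by the authors; it equalled log2 of the processed signal minus a constant within 0.001 for at least 99.44% of probes on each array, and its column medians ran from -4.25 to -3.60. Control spots and spots with an outlier flag were left out (11 probes), spots of a probe were averaged, and log2 signal minus the array's 75th percentile was used. A gene was represented by its brightest probe on average (11173 of 34792 genes had several). A gene entered a test where all arrays of 1 side or the other had it well above background.

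limma 3.58.1 in R 4.3.3 (lmFit, eBayes with trend) was fitted to all 7 arrays with means for postmortem CMPs, living CMPs, adult heart and fetal heart and a chamber term, which left 2 residual degrees of freedom, and p-values were adjusted over all genes tested by Benjamini-Hochberg with a threshold of 0.05. The number of arrays limits the precision. For both comparisons within CMPs the lack of called members is therefore not read as a lack of difference. Probe coordinates are mm9, per the file headers, and all 40 members matched RefSeq by accession. Promoters come from RefSeq on GRCm38.p6, and no coordinates were moved between builds. Figures were drawn with matplotlib 3.10.9 in Python 3.11.15.

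The members, the other gene lists and the tests were chosen with earlier results of these data known. The text names members by role, the 3 largest and 3 smallest differences of a comparison, members that go against most others and members whose probes disagree. Of the other lists it gives counts, medians and up to 3 genes at each end. Alternatives were normexp background correction (offset 50), quantile normalization, the series table, no or a stricter filter on dim probes, the mean of all probes, no trend, CMP arrays alone, no chamber or storage term, and leaving out each array in turn.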

Additional observations from a re-analysis of the deposited data

How the results depend on the processing

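Over 5 comparisons, 142 of 150 recomputed counts and medians stayed on their side (counts within 1.5 times, medians within 1 residual SD of 0.21 to 0.22). Many alternatives could not move a median. Fitted differences are unchanged by construction without the trend, on CMP arrays alone, without the chamber or storage term, or without an array outside the comparison. The series table is nearly the same signal minus a constant. Neither this count nor that of turned signs below therefore measures stability. The median difference of CMPs minus adult heart was 3.88 and moved to 2.96 with normexp and 4.16 with quantile normalization, and that of adult minus fetal heart was -5.64 and moved to -4.28 and -5.85. Under the stricter filter, which tests fewer genes, 23 of 23 members were called for CMPs against adult heart and 22 of 24 for adult against fetal heart. Members called for postmortem against living CMPs were 0 to 6 over the arrays left out. In 9 members followed singly, signs turned in 5 of 630 recomputed values: for ventricular minus atrial CMPs Cenpa ran from -0.27 to 0.57 and Anln from -0.08 to 0.35 over the arrays left out, below 0 without either living array, and Cenpf became 0.16 for adult minus fetal heart with normexp. The cause was not tested. Over all genes, 20 were called for postmortem against living CMPs, with 0 without the trend or on CMP arrays alone, 2 without the chamber term, 47 with normexp, 53 without a filter and up to 1764 over the arrays left out. Without a filter on dim probes the median of all genes was -0.45 for CMPs minus adult heart and 0.50 for adult minus fetal heart. A slide or scan block could not be run, since all 7 arrays shared 1 slide and 1 scan, and leaving out the adult array leaves no comparison with it. No paired analysis was possible because the labels give no shared replicate numbers; the chambers, which the labels do give, are a term of the model. Signal near background limits Aurkb, Cenpf and Ttk.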

Other observations

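Genes that act before mitosis were also followed. Of 9 genes of the G1 cyclins and their kinases, 8 were tested in postmortem against living CMPs, 5 stood higher, the median was 0.27 and 0 were called by limma (2 at an unadjusted p under 0.05). Of all 19013 genes tested 50.7% stood higher, 20 were called and 2101 had an unadjusted p under 0.05. Ccnd1, the cyclin D that growth factors induce, had the largest difference (2.07 ± 0.34, adjusted p = 0.192) and Ccnd2 the next (0.99). Against fetal heart Ccnd1 (1.79 ± 0.29, limma, adjusted p = 0.0052), Cdk6 (1.66) and Ccnd2 (1.08) rose in CMPs, whereas 4 of the 8 fell, Cdk2 most (-1.99 ± 0.29), where 22.8% of all genes rose and 25.2% fell. Against adult heart 6 of 8 rose in CMPs and 0 fell, with a median of 2.22, where 24.6% of all genes rose. In adult against fetal heart 7 of 7 tested fell, with a median of -2.24, where 18.2% of all genes fell.

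Of 25 regulators of the mitotic programme, among them E2F, retinoblastoma, MuvB and NF-Y genes, 19 stood higher in postmortem than in living CMPs, with a median of 0.22 and 0 called by limma (3 at an unadjusted p under 0.05). Among all 19013 genes tested, 50.7% stood higher, 20 were called and 2101 had an unadjusted p under 0.05. Against fetal heart 14 of 25 fell in CMPs and 2 rose, with a median of -0.60, beside the same 25.2% and 22.8% of all genes. The largest fall was that of E2f2 (-4.10 ± 0.21, adjusted p = 0.000184), and Rb1, the retinoblastoma gene that restrains the cycle, rose by 0.92 ± 0.19 (limma, adjusted p = 0.011). Against adult heart 9 of 25 rose in CMPs and 5 fell, near the share of all genes (24.6% each way), with E2f1 highest (4.79 ± 0.30, limma, adjusted p = 4e-04).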
